A study of Mus musculus with 24 samples.

Results

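The integrated stress response was followed in TM3 cells, a mouse Leydig cell line, through 10 genes: Atf4, Atf3, Atf5, Ddit3, Ddit4, Trib3, Chac1, Sesn2, Ppp1r15a and Nupr1. They were taken by name as the transcription factors Atf4 and Chop (the product of Ddit3) with relatives and well-known targets. No measured value entered this rule, but earlier results of these data were known when the members were chosen. A probe belonged to a member where its RefSeq transcript carried that gene symbol. The genes are 10 of 23787 that had a probe with a symbol. This gave 12 probes of the 56605 on the array, 2 each for Atf4 and Atf5 and 1 for each other gene, and all 12 were among the 37684 probes tested. Cells in suspension were either sham-treated (S) or exposed to a nanosecond pulsed electric field (nsPEF, E) of 80 pulses, 60 ns each, at 14 kV/cm over 180 s, and RNA was taken at 0, 4 and 24 h. The groups are named S0, E0, S4, E4, S24 and E24, each with 4 biological replicates on an array of its own, 24 one-colour arrays in all. Both treatments shared the washing, the suspension in buffer and the electroporation cuvette, and no group of untouched cells was analysed here. Since TM3 is a single established line in culture, the groups stand for that line and not for Leydig cells of the testis.

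The integrated stress response starts when kinases that sense amino acid shortage, unfolded protein in the endoplasmic reticulum, viral RNA or lack of heme phosphorylate the translation factor eIF2 alpha. General protein synthesis falls while some messages, that of Atf4 among them, are translated more. ATF4 then switches on genes for amino acid supply, redox control and further factors such as CHOP, and the phosphatase subunit encoded by Ppp1r15a closes the loop by removing the phosphate from eIF2 alpha. Because Atf4 is governed largely at translation, its mRNA level is not a measure of the ATF4 protein. Protein and phosphorylation were not measured on these arrays.

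Every member was well above background on every array with a usable spot. Values are log2 of the processed signal minus the 75th percentile of the same array, so 0 is the 75th percentile, and a value is compared only with other values of the same probe. On each array the percentile stood at an intensity between 201.8 and 532.7, and the brightest array was S4 replicate 4. The share of probes well above background was higher in sham than in nsPEF arrays at each time point (means of 58.9% against 54.9%, 59.5% against 54.2% and 60.0% against 55.6% at 0, 4 and 24 h, n = 4 against 4, exact two-sided permutation p = 0.0286 each, the smallest this design allows). Each slide carried 1 time point (8 arrays), with sham samples in its first row and nsPEF samples in its second. Effects of slide and time, and of position and treatment, therefore cannot be told apart. Of 9 Leydig cell markers, 8 had a probe. Star, Cyp17a1 and Nr5a1 were well above background on all 24 arrays, while Cyp11a1, Hsd3b6, Hsd17b3 and Lhcgr were so on none and Hsd3b1 on 1. Markers of other testis cell types were mixed too. Of 5 Sertoli cell markers, 3 were well above background on all 24 arrays (Sox9, Wt1 and Rhox5), while Amh and Fshr were so on 2 and 1. For germ cells it was 1 of 3 markers, for macrophages 2 of 4 and for endothelium 1 of 3. Of 3 peritubular or smooth muscle markers, Acta2 was so on all 24 arrays, Myh11 on 17 and Des on 22.

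The members lie on 6 chromosomes of the mouse genome (GRCm38.p6). Atf4, the main effector, spans chr15:80255184-80257545. Atf3, an early stress-induced repressor and activator, spans chr1:191170296-191183333, and Atf5, a relative of Atf4 that is also under translational control, spans chr7:44812256-44816658. Ddit3, which encodes CHOP, spans chr10:127290793-127296291 and Ddit4, an inhibitor of mTORC1 signalling, spans chr10:59949675-59951770. Trib3, a pseudokinase that binds ATF4 and AKT, spans chr2:152337425-152344060, and Chac1, which degrades glutathione, spans chr2:119351242-119354326. Sesn2, a leucine sensor upstream of mTORC1, spans chr4:132492804-132510456. Ppp1r15a (GADD34) spans chr7:45522917-45526268 and Nupr1, a small chromatin-associated stress protein, spans chr7:126623246-126625470.

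The 250 bases before the start of each member (RefSeq, GRCm38.p6) were searched on both strands for TGATGNAA, the core of the C/EBP-ATF response element through which ATF4 and CHOP are known to act, and for TGACGTCA, the cyclic AMP response element. The letters TGATGNAA stood in this window for 3 of the 10 genes, Atf3, Chac1 and Nupr1, against 3.45% of the 32851 promoters searched. The letters TGACGTCA stood in it for Ppp1r15a, against 1.55% of promoters. No window of a member held both motifs. Of the genes with a match, Chac1 and Nupr1 differed between nsPEF and sham at 4 h, and Atf3 and Ppp1r15a moved most with time. Trib3 also differed at 4 h, and its window held neither motif. The 4 windows with a match are shown. They run 5′ to 3′ on the strand of the gene with the matched letters in capitals.

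Atf3 (chr1:191183334-191183583, minus strand): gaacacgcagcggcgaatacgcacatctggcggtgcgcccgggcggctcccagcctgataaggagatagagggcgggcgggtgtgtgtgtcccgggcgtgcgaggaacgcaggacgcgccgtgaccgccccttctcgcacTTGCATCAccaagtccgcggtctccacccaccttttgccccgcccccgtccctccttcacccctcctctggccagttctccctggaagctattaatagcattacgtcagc
Chac1 (chr2:119350992-119351241, plus strand): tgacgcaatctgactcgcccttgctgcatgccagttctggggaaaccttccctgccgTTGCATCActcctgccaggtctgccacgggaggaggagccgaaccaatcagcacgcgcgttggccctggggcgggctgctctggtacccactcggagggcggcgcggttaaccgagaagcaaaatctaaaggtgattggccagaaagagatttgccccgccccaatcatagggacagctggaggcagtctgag
Nupr1 (chr7:126625471-126625720, minus strand): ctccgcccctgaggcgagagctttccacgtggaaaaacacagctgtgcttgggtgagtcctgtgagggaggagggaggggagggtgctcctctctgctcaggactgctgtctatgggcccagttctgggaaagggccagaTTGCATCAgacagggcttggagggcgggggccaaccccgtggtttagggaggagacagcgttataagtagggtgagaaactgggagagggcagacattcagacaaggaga
Ppp1r15a (chr7:45526269-45526518, minus strand): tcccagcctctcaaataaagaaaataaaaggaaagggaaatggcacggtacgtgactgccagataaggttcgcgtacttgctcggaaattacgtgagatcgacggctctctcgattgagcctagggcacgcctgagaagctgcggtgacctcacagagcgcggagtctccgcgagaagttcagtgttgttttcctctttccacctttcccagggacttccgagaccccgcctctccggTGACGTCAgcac

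In Atf3, Chac1 and Nupr1 the match read TTGCATCA, on the strand opposite to the gene, and it began 110, 193 and 110 bases before the start. In Ppp1r15a it began 12 bases before the start. The windows of Atf4, Atf5, Ddit3, Ddit4, Trib3 and Sesn2 held neither run of letters, which says only that these letters are not in this window.

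**Figure D1:**
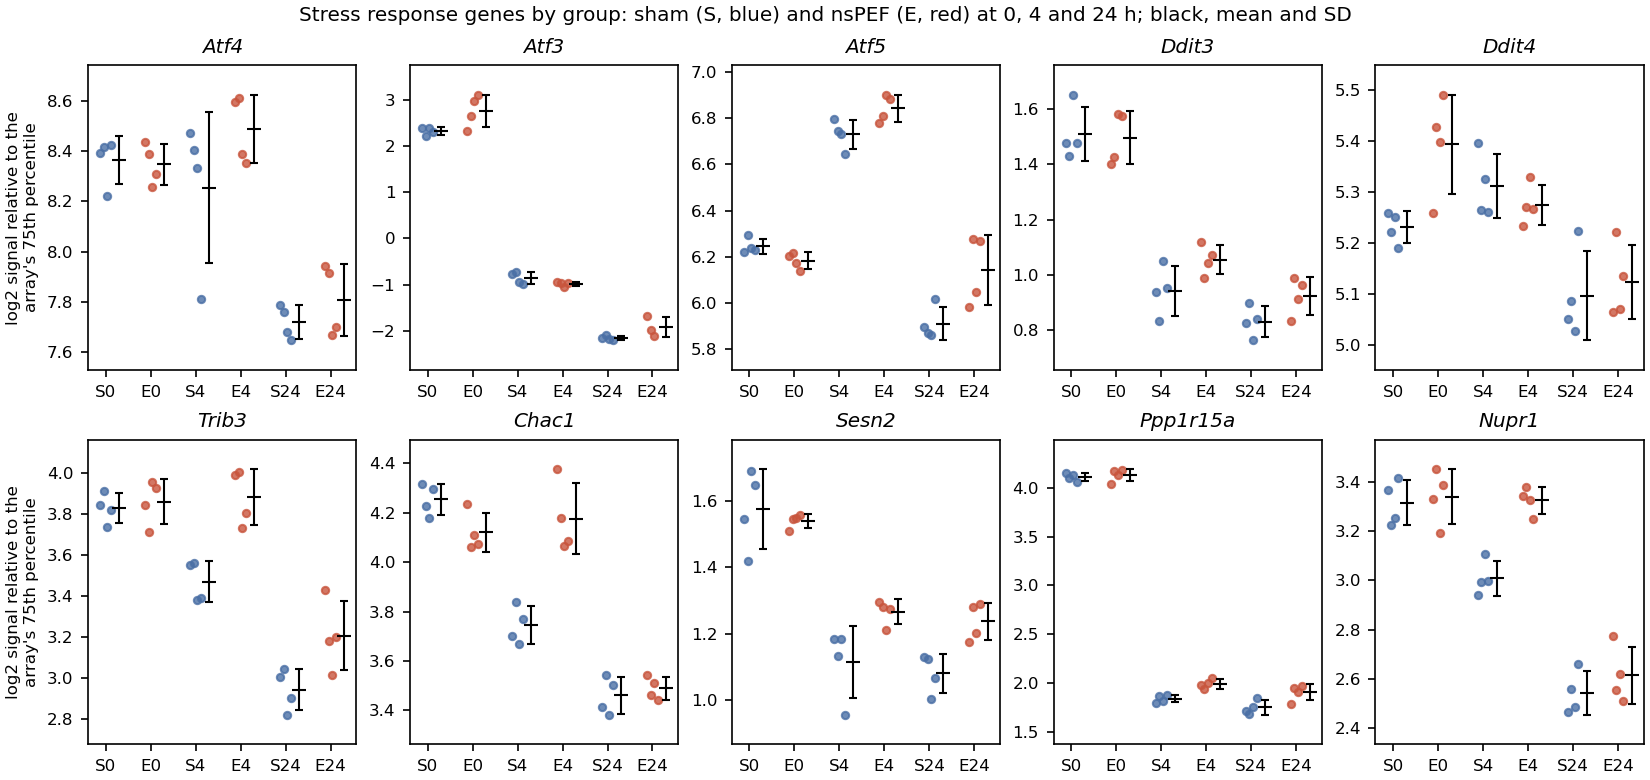
Log2 signal of the 10 genes relative to the 75th percentile of each array, by group. Points are single arrays (blue, sham; red, nsPEF), and the black bar is the mean with its SD. Atf3 and Ppp1r15a stand far higher at 0 h than later in both treatments. For Chac1, Trib3, Nupr1, Sesn2 and Ppp1r15a all 4 E4 arrays lie above all 4 S4 arrays. The share of all probes that separate in this way is not given.

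The first comparison asked how the genes moved with time in sham-treated cells, which went through harvest and suspension without a field. The 0 h cells were taken straight after that handling, while those of 4 and 24 h had been back in culture and were harvested quickly. For Fos, Jun and Egr1, the authors propose that high values at 0 h could stem from the long preparation. Time and handling cannot be told apart here. From 0 to 4 h, 7 of the 10 members fell and 1 rose at an adjusted p under 0.05 in limma's moderated test with Benjamini-Hochberg adjustment over all tested probes, and from 0 to 24 h 9 fell and 0 rose. Among all tested probes, 29.7% were called lower and 29.4% higher at 4 h, and 19.7% lower and 16.9% higher at 24 h. The median difference of the members was -0.41 at 4 h and -0.72 at 24 h, beside medians within 0.01 of 0 over all tested probes. These changes are relative to the signal of the whole array. With arrays scaled on 6 spike-in probes instead, the median of all probes itself rose by 0.70 from 0 to 24 h in sham and by 0.54 in nsPEF, and the call of several members turned. In sham 3 members (Atf5, Ddit4 and Sesn2) were then called higher and 2 (Atf3 and Ppp1r15a) lower at 24 h against 0 h, and in nsPEF 2 were called higher and 3 lower. The share of all probes called under that scaling is not given here. Only the falls of Atf3 and Ppp1r15a in sham, and of these and Nupr1 in nsPEF, were called lower at 24 h under both scalings.

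Atf3 changed most. It read 2.38, 2.22, 2.39 and 2.30 in S0, fell to -0.78, -0.72, -0.95 and -0.98 in S4 and to -2.16, -2.08, -2.17 and -2.21 in S24. The 3 groups did not overlap, and each time point lay below the one before. Atf3 fell by 3.18 (SE 0.124, adjusted p = 3.9e-14) from 0 to 4 h, 9.05-fold, and by 4.48 (SE 0.124, adjusted p = 2.25e-15) from 0 to 24 h, 22.3-fold. With spike-in scaling the 24 h difference was -3.78. Ppp1r15a, whose product removes the phosphate from eIF2 alpha, read 4.16, 4.10, 4.14 and 4.06 in S0 and 1.80, 1.86, 1.82 and 1.87 in S4. It then stood at 1.71, 1.68, 1.76 and 1.85 in S24, overlapping S4. It fell by 2.28 (SE 0.049, adjusted p = 2.36e-18) by 4 h, 4.85-fold, and its later change was not called (-0.09, adjusted p = 0.137).

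Ddit3, which encodes CHOP, read 1.48, 1.43, 1.65 and 1.48 in S0, 0.94, 0.83, 1.05 and 0.95 in S4, and 0.82, 0.90, 0.76 and 0.84 in S24. All arrays at 4 and 24 h lay below all arrays at 0 h, and the groups of the later times overlapped. Ddit3 fell by 0.57 (SE 0.0601, adjusted p = 6.97e-08) from 0 to 4 h, 1.48-fold, while the step from 4 to 24 h, -0.11, was not called (adjusted p = 0.122). At 24 h against 0 h it differed by -0.68 in the main scaling but by 0.02 (adjusted p = 0.845) with spike-in scaling. Sesn2 followed the same course, with a fall of 0.46 by 4 h and a difference of -0.04 (adjusted p = 0.646) between 4 and 24 h.

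Trib3, Chac1 and Nupr1 fell at each step. Trib3 fell by 0.36 from 0 to 4 h and by 0.53 from 4 to 24 h, Chac1 fell by 0.51 and then by 0.29, and Nupr1 fell by 0.30 and then by 0.47, with adjusted p values from 8.19e-07 to 0.00114 over these 6 steps. The steps from 4 to 24 h turned under spike-in scaling, with differences of 0.12 for Trib3, 0.37 for Chac1 and 0.19 for Nupr1, against a rise of 0.66 in the median of all probes. The later fall of Chac1 also lost its call with quantile normalization (-0.12, adjusted p = 0.122) and with the percentile of probes detected on all arrays (-0.12, adjusted p = 0.11). Ddit4 was not called in sham from 0 to 4 h (0.08, SE 0.0544, adjusted p = 0.21) or from 0 to 24 h (-0.13, adjusted p = 0.0618), though it fell by 0.21 between 4 and 24 h (adjusted p = 0.00206). With quantile normalization that last difference was 0.0304, and with the percentile of probes detected on all arrays it was -0.0508 (adjusted p = 0.435).

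Atf4 itself gave no single answer at 4 h. Its brighter probe read 8.39, 8.42, 8.22 and 8.43 in S0 and 8.47, 8.40, 8.33 and 7.81 in S4, and the difference of -0.11 (SE 0.111, adjusted p = 0.412) was not called. Its dimmer probe read 4.45, 4.44, 4.48 and 4.45 in S0 and 4.81, 4.64, 4.73 and 4.67 in S4, with no overlap, and rose by 0.26 (SE 0.0495, adjusted p = 0.000143). S4 replicate 4 read lowest by the brighter probe, and without it that probe differed by 0.04 (adjusted p = 0.735), which is still below the 0.26 of the dimmer probe. With quantile normalization the brighter probe differed by 0.21. On that array the brighter probe had an intensity of 119500, which was 69.6% of the highest on the array. Of the 459 probes with a mean intensity over 50000 on the other sham arrays of 4 h, all 459 were lower on S4 replicate 4, by a median of 0.54 on the log2 scale, while the median over all tested probes was -0.04 and the dimmer Atf4 probe differed by -0.06. This comparison of bright probes was made after the values were seen. Across the 24 arrays the 2 Atf4 probes had a correlation of r = 0.859, given as a description.

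At 24 h both Atf4 probes were lower than at 0 h in sham, by 0.65 (adjusted p = 0.000121) and 0.63 (adjusted p = 5.48e-09), and with spike-in scaling the brighter probe differed by 0.0515. Atf5 was the only member called higher in sham at 4 h. It read 6.22, 6.29, 6.24 and 6.23 in S0 and 6.80, 6.75, 6.73 and 6.65 in S4, with no overlap, and it rose by 0.49 (SE 0.0603, adjusted p = 6.26e-07), 1.40-fold. Its second probe rose by 0.64 (adjusted p = 2.74e-09). By 24 h Atf5 had fallen again, to between 5.86 and 6.02, which was 0.34 below 0 h (adjusted p = 0.000196) but 0.36 above it with spike-in scaling. The 2 Atf5 probes had r = 0.984 across the 24 arrays.

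**Figure D2:**
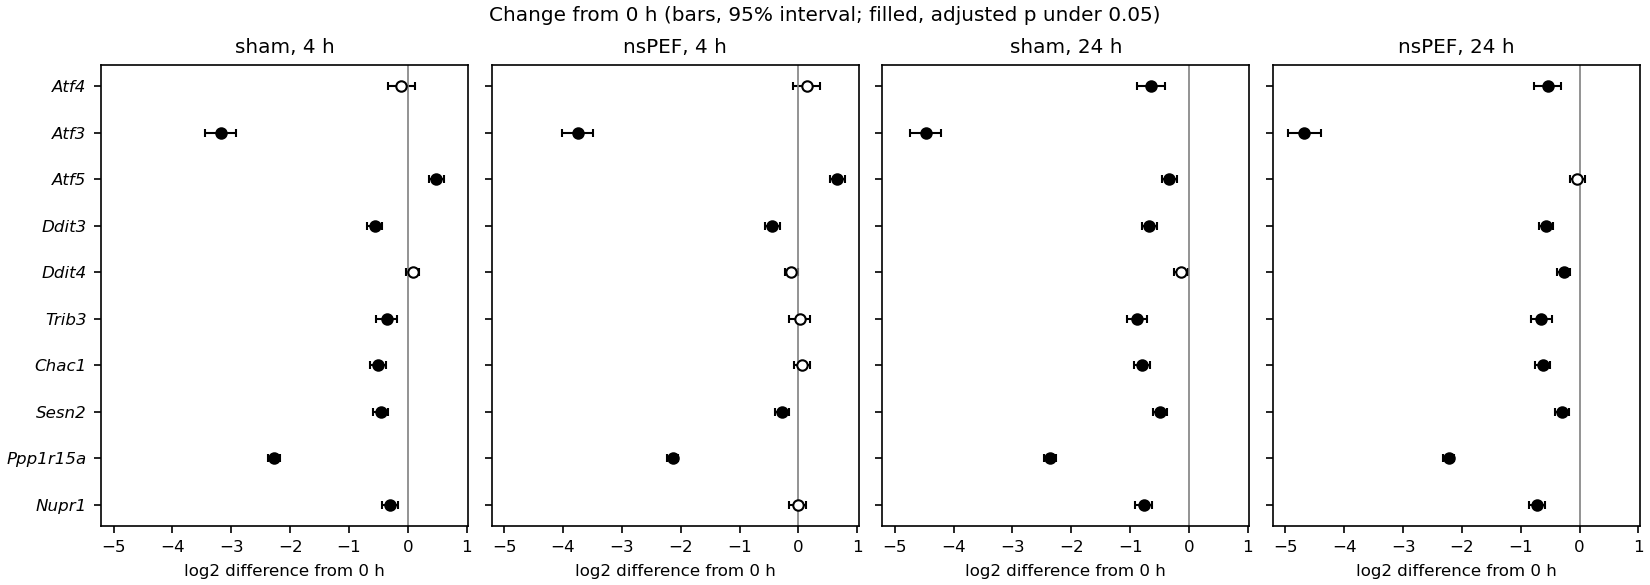
Log2 difference from 0 h at 4 and 24 h in sham and nsPEF for each gene, with its 95% interval. Filled points passed an adjusted p of 0.05. Atf3 and Ppp1r15a fell furthest in every panel, and Trib3, Chac1 and Nupr1 are filled at 4 h in sham but open in nsPEF.

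In nsPEF-exposed cells, 4 members fell from 0 to 4 h and 1 rose, where 27.8% of all tested probes were called lower and 33.5% higher. Atf3, Ppp1r15a, Ddit3 and Sesn2 fell and Atf5 rose, by 0.66 (SE 0.0603, adjusted p = 6.83e-09). Trib3, Chac1 and Nupr1 differed by 0.02, 0.05 and -0.01 (adjusted p of 0.832, 0.482 and 0.861), with 95% intervals of -0.155 to 0.201, -0.0797 to 0.189 and -0.156 to 0.126. Ddit4 differed by -0.12 (adjusted p = 0.065) and was called lower in 7 of 13 alternative settings. In sham, Trib3, Chac1 and Nupr1 fell by 0.36, 0.51 and 0.30 over the same step. Whether the time courses differed between treatments was tested by the interaction, given further on. It was called for Chac1 but not for Trib3 or Nupr1. From 0 to 24 h 9 members fell, all but Atf5, where 18.3% of all probes were called lower and 23.9% higher.

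From 4 to 24 h, 7 members fell and 0 rose in sham, where 29.9% of all probes were called lower and 27.8% higher. In nsPEF 7 fell and 0 rose over the same step, where 29.0% were called lower and 27.5% higher. Ddit3, Sesn2 and Ppp1r15a were the members not called in either treatment. The fall of Ddit4 in nsPEF (0.15, adjusted p = 0.0223) lost its call in 5 of 13 alternative settings, turned in 2, and was lost without E4 replicate 3 or E24 replicate 1 or 3 (adjusted p of 0.0649, 0.0638 and 0.064). With spike-in scaling the counts became 5 higher and 2 lower in sham, and 4 higher and 5 lower in nsPEF. The median of all probes then rose by 0.66 in sham and 0.37 in nsPEF. The share of all probes called under that scaling is not given, so these counts are not results about the members. The fall of Atf3 in nsPEF over this step, 0.93 (adjusted p = 6.81e-06), rests on 3 E24 arrays, because the spot on E24 replicate 1 was marked as not uniform or as an outlier and left out. With marked spots kept, the difference was -0.30 (adjusted p = 0.522).

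The main question of the design was whether the field changed these genes beyond sham treatment. At 0 h none of the 10 members was called, and 0.127% of all tested probes were called. Atf3 read 2.33, 2.64, 2.97 and 3.1 in E0 against 2.22 to 2.39 in S0. Only E0 replicate 1 lay within the sham range, and the difference was 0.44 (SE 0.124, adjusted p = 0.173). Without E0 replicate 1 it was 0.58 (adjusted p = 0.0274), the only omission of an array that gave a call at 0 h. Ddit4 differed by 0.16 (adjusted p = 0.247), with E0 at 5.26 to 5.49 and S0 at 5.19 to 5.26.

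At 4 h, 3 of the 10 members were higher in nsPEF and 0 lower, where 1.71% of all tested probes were called higher and 1.60% lower. They were Chac1, Trib3 and Nupr1. The median difference of the members was 0.15, beside 0.005 over all tested probes. Chac1, which degrades glutathione, read 3.70, 3.84, 3.67 and 3.77 in S4 and 4.38, 4.18, 4.06 and 4.08 in E4. Every nsPEF array lay above every sham array, and the difference was 0.43 (SE 0.0643, 95% interval 0.294 to 0.563, adjusted p = 0.00248), 1.35-fold. The promoter windows of Chac1 and Nupr1 hold TTGCATCA, as does that of Atf3, which was not called at 4 h, while that of Trib3 does not. A link between these letters and the differences was not tested.

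Trib3, the pseudokinase partner of ATF4, read 3.55, 3.56, 3.38 and 3.39 in S4 and 3.99, 4.01, 3.73 and 3.80 in E4. The groups did not overlap, with a difference of 0.41 (SE 0.085, adjusted p = 0.0145), 1.33-fold. Nupr1 read 2.94, 2.99, 3.11 and 3.00 in S4 and 3.34, 3.38, 3.33 and 3.25 in E4, again with no overlap, and the difference was 0.32 (SE 0.0675, adjusted p = 0.017), 1.24-fold. For all 3 genes the E4 mean (4.18, 3.88 and 3.32) stood within 0.06 of the E0 mean (4.12, 3.86 and 3.34), while the S4 mean was lower than that of S0, and the S4 arrays enter both the comparison with E4 and that with S0. Without S4 replicate 1 the adjusted p of Nupr1 was 0.0527. Without any 1 replicate number (6 arrays) it was 0.0549 to 0.11, and that of Trib3 was 0.0609 to 0.0898, whereas Chac1 was called in each case. Nupr1 also lost the call with normexp background correction (adjusted p = 0.0544) and with centring by array row (adjusted p = 0.0595). In a fit of the 8 arrays of 4 h alone the differences stayed the same, but the adjusted p values were 0.0752, 0.0917 and 0.0659 for Chac1, Trib3 and Nupr1 and no member was called.

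The other members were not called at 4 h. Ddit3 differed by 0.11 (SE 0.0601, 95% interval -0.0135 to 0.238, adjusted p = 0.291), with 0.99 to 1.12 in E4 and 0.83 to 1.05 in S4. Ppp1r15a (0.16, adjusted p = 0.0816) and Sesn2 (0.15, adjusted p = 0.15) did not overlap between the groups, and Atf5 differed by 0.11 and Ddit4 by -0.04. Ppp1r15a was called higher in 5 of 13 alternative settings: quantile normalization (adjusted p = 0.0404), the percentile of probes detected on all arrays (0.0368), centring by array row (0.0355), the plain two-way analysis of variance (0.0487) and spike-in scaling (0.0062). Atf4 differed by 0.23 (adjusted p = 0.233) by its brighter probe and by 0.11 (adjusted p = 0.201) by its dimmer one, and the brighter probe gave 0.09 without S4 replicate 4. Atf3 differed by -0.13 (adjusted p = 0.579). With spike-in scaling 8 members were called higher, while the median of all probes was also 0.19 higher in nsPEF at 4 h. Relative to that median, Atf4, Atf5, Ddit3, Sesn2 and Ppp1r15a, which the main fit did not call, differed by 0.23, 0.11, 0.11, 0.15 and 0.15. The share of all probes called under this scaling is not given, so the count is not a result about the members.

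At 24 h, 1 of the 10 members was higher in nsPEF and 0 lower, where 2.64% of all tested probes were called higher and 2.18% lower. Atf5 read 5.89, 5.87, 5.86 and 6.02 in S24 and 5.98, 6.28, 6.05 and 6.27 in E24. E24 replicate 1 lay within the sham range, and the difference was 0.23 (SE 0.0603, adjusted p = 0.0328), 1.18-fold. Its second probe did not overlap between the groups and differed by 0.26 (adjusted p = 0.0128). The brighter probe lost the call when S24 replicate 1, 2 or 3 or E24 replicate 2 or 4 was left out, with adjusted p values from 0.0796 to 0.12. Trib3 differed by 0.26 and was not called (adjusted p = 0.0771), and Chac1 and Nupr1 differed by 0.03 and 0.07 (adjusted p of 0.818 and 0.56).

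**Figure D3:**
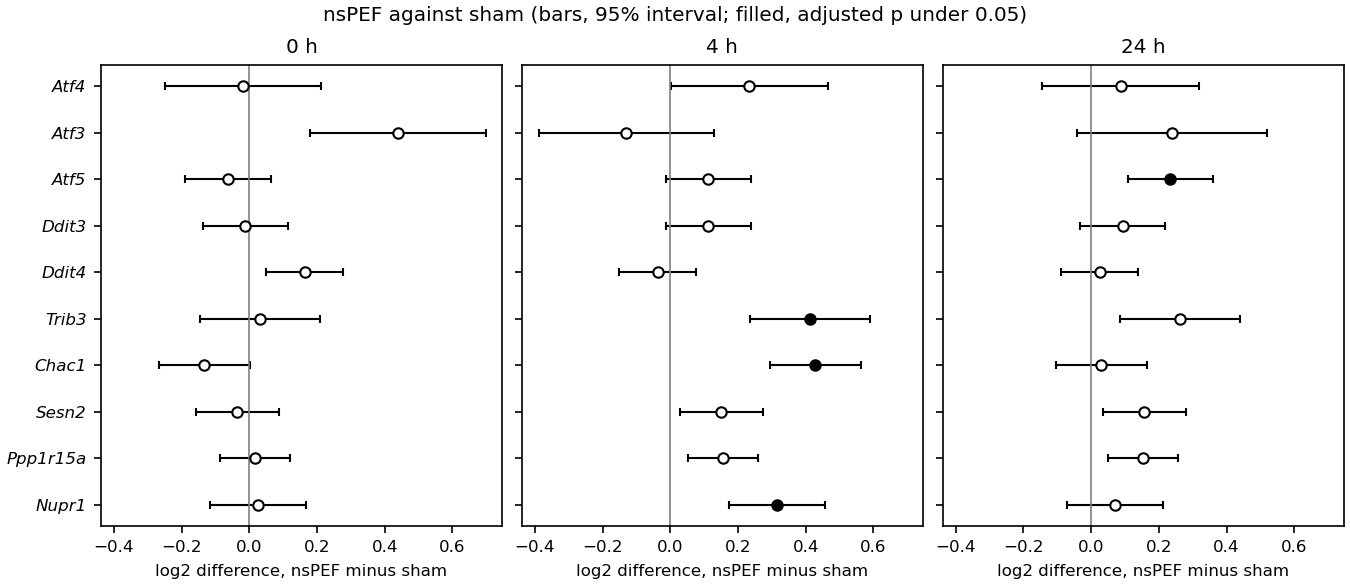
Log2 difference of nsPEF minus sham at 0, 4 and 24 h for each gene, with its 95% interval. Filled points passed an adjusted p of 0.05: Chac1, Trib3 and Nupr1 at 4 h and Atf5 at 24 h.

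Averaged over the 3 time points, 3 members were higher in nsPEF and 0 lower, where 4.39% of all tested probes were called higher and 4.44% lower. Trib3 was 0.24 higher (SE 0.0491, adjusted p = 0.00884), Ppp1r15a 0.11 (SE 0.0283, adjusted p = 0.024) and Nupr1 0.14 (SE 0.039, adjusted p = 0.0348). Nupr1 lost this call without S0 replicate 2 or 3, E0 replicate 2 or 4, S4 replicate 1 or 2, E4 replicate 3, or S24 replicate 1, 2 or 3, with adjusted p values from 0.0501 to 0.0624. Nupr1 and Ppp1r15a both lost it with marked spots kept (adjusted p of 0.0587 and 0.052). Nupr1 differed by 0.0765 (adjusted p = 0.209) with centring by array row and lost the call with normexp (adjusted p = 0.0747). Without a whole replicate number the call of Trib3 was lost for number 1 or 4 (adjusted p of 0.0523 and 0.0657) and that of Ppp1r15a for number 2, 3 or 4 (adjusted p of 0.171, 0.156 and 0.0767). All 10 differences were above 0, from 0.05 to 0.24 (with quantile normalization that of Atf4 was -0.0267), with a median of 0.11 beside -0.001 over all tested probes. The interaction of treatment and time was called for Chac1 (F = 20.3, adjusted p = 0.017), where 0.377% of all tested probes were called. For Chac1, the 0 h, 4 h and 24 h differences between nsPEF and sham were -0.13, 0.43 and 0.03. With normexp background correction its adjusted p was 0.0943. The interaction was not called for Trib3 (adjusted p = 0.206), Nupr1 (adjusted p = 0.194) or Atf5 (adjusted p = 0.164), so their differences were not shown to vary with time. Without E24 replicate 1 the interaction of Atf5 was called (adjusted p = 0.0435).

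Across the 24 arrays the members fell into patterns that the rule for choosing them did not use. These correlations are descriptions over arrays that share 6 groups and 3 slides. Atf3 and Ppp1r15a had r = 0.972, and each had r of 0.958 and 0.957 with Ddit3. Chac1, Trib3 and Nupr1 had r from 0.925 to 0.941 with each other. Atf5 had r from -0.219 to -0.0553 with Ppp1r15a, Sesn2, Atf3 and Ddit3, and from 0.398 to 0.636 with Chac1, Nupr1, Ddit4, Trib3 and Atf4, the highest with Atf4. Among 12243 other genes well above background on all arrays, the 5 most like Ddit3 were Eci1 (r = 0.967), Fosb (0.962), Tcim (0.958), Ier2 (0.957) and Csrnp1 (0.954). Fosb, Ier2 and Csrnp1 are known as immediate early genes. The 5 most like Atf4 by its brighter probe were Hnrnpa1 (r = 0.963), Rps7 (0.951), Myl6 (0.948), Acly (0.936) and Rps6 (0.929). All 5 were lower on S4 replicate 4 than the mean of the other sham arrays of 4 h, by 0.27 to 0.45, as was Atf4, by 0.59, and the part of that array in these correlations was not tested.

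Upstream of the members, 3 of the 9 tested genes for eIF2 alpha kinases, their regulators and eIF2 subunits fell in sham from 0 to 4 h and 5 rose. Of all tested probes, 29.7% were called lower and 29.4% higher in that comparison. Eif2ak2 (PKR, the sensor of double-stranded RNA) fell by 1.5, Eif2ak3 (PERK, the sensor of the endoplasmic reticulum) by 1.07 and Eif2ak4 (GCN2, the sensor of uncharged tRNA) by 0.60, while Eif2s1, which encodes eIF2 alpha, rose by 0.76, Impact, an inhibitor of GCN2, by 0.46 and Eif2s2 by 0.45. Their adjusted p values ran from 2.84e-14 to 6.59e-05. In nsPEF against sham, Eif2ak2 was 0.30 lower at 4 h (SE 0.0616, adjusted p = 0.0143), with 0.58 to 0.74 in E4 and 0.82 to 1.11 in S4, and Eif2ak4 was 0.20 lower at 24 h (adjusted p = 0.0159). Of the 8 genes for eIF2B and the eIF2 alpha phosphatase, 5 rose in sham by 4 h and 0 fell, beside the same shares of all probes. Eif2b1 and Eif2b3 rose by 0.91 and 0.79 and Ppp1r15b, the constitutive counterpart of Ppp1r15a, by 0.56. Eif2b5 was 0.23 lower in nsPEF at 4 h (SE 0.0514, adjusted p = 0.0215).

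Of the 8 tested genes for bZIP partners of ATF4 and CHOP, 4 rose and 2 fell in sham by 4 h, where 29.4% of all tested probes were called higher and 29.7% lower. The 2 largest changes were opposite. Fosl1, an AP-1 subunit, rose by 2.99 (SE 0.0928, adjusted p = 4.16e-16), Maff by 1.08 and Nfe2l2 (NRF2, the regulator of antioxidant genes) by 0.41, while Cebpd fell by 2.55 (SE 0.0522, adjusted p = 1.19e-18) and Batf3 by 0.57. Cebpd was 0.23 lower in nsPEF than in sham at 24 h (adjusted p = 0.0175). Cebpa was not tested because it was too dim.

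Among known targets of ATF4 in amino acid synthesis, 3 of 12 rose and 5 fell in sham by 4 h. Of all tested probes, 29.4% were called higher and 29.7% lower. Mthfd2 (mitochondrial folate metabolism) rose by 0.54, Psat1 by 0.40 and Psph (both of serine synthesis) by 0.20, and Aldh1l2, Gpt2 and Pycr1 fell by 0.56, 0.51 and 0.49. Asparagine synthetase, Asns, differed by 0.08 (adjusted p = 0.373). In nsPEF against sham, 0 of 12 were called at 4 h, and at 24 h Shmt2 was 0.17 higher (adjusted p = 0.0335) and Pycr1 0.27 lower (adjusted p = 0.0384). Of 10 amino acid transporters, 4 rose and 3 fell in sham by 4 h, near the same shares of all probes. Slc7a1, a carrier of cationic amino acids, rose by 1.31 (adjusted p = 2.57e-11), Slc7a11, the cystine carrier, by 0.93 and Slc7a3 by 0.32, while Slc6a9, Slc7a5 and Slc38a2 fell by 0.80, 0.73 and 0.30. None of the 10 was called between nsPEF and sham at 0, 4 or 24 h.

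Of 12 aminoacyl-tRNA synthetases, 6 rose and 3 fell in sham by 4 h, where 29.4% of all tested probes were called higher and 29.7% lower. Nars, Tars and Wars rose by 0.65, 0.61 and 0.54, and Mars1, Lars and Eprs fell by 0.52, 0.19 and 0.18. In nsPEF against sham, Gars was 0.19 higher at 4 h (SE 0.0497, adjusted p = 0.0403), and Aars was 0.25 higher (adjusted p = 0.0367) and Wars 0.20 higher (adjusted p = 0.0407) at 24 h.

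The 17 other targets of ATF4 and CHOP held the most genes called between treatments at 4 h, with a background of the same 1.71% higher and 1.60% lower. In sham by 4 h 9 rose and 6 fell, where 29.4% of all tested probes were called higher and 29.7% lower. Fgf21, a stress hormone, fell by 2.05 (SE 0.138, adjusted p = 7.04e-11) and Gadd45a, a growth arrest gene, by 1.07 (adjusted p = 4.64e-10). Gdf15, a secreted stress factor, was called lower at 4 h (adjusted p = 6.9e-05). It was well above background on all 4 arrays of S0, at -3.51 to -1.09, and on 0 of 4 of S4, at -5.44 to -5.1, so no size is given. Sqstm1 (p62, of selective autophagy) rose by 1.09, Ero1a (disulfide formation in the endoplasmic reticulum) by 0.85 and Tnfrsf10b, a death receptor, by 0.82. At 4 h 3 of the 17 were higher in nsPEF than in sham and 0 lower. Fgf21 read -2.74 to -2.32 in E4 and -3.25 to -2.92 in S4 and differed by 0.56 (SE 0.138, adjusted p = 0.0323). Gadd45a differed by 0.40 (SE 0.0814, adjusted p = 0.0141), with -0.10 to 0.26 in E4 and -0.45 to -0.21 in S4. Sqstm1 differed by 0.28 (SE 0.0595, adjusted p = 0.0172), with 6.53 to 6.65 in E4 and 6.15 to 6.38 in S4. From 0 to 4 h in nsPEF, Fgf21 fell by 1.62 (adjusted p = 2.56e-09) and Gadd45a by 0.76 (adjusted p = 7.7e-08), while Sqstm1 rose by 1.32 (adjusted p = 1.22e-13). At 24 h 0 were higher and Ndrg1 was 0.29 lower (adjusted p = 0.0412).

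In the other arms of the unfolded protein response, 8 of 16 genes fell and 4 rose in sham by 4 h. Of all tested probes, 29.7% were called lower and 29.4% higher. Ern1, which encodes the sensor IRE1 alpha, rose by 1.99 (adjusted p = 8.8e-14) and Atf6 by 0.88, and Edem1 by 0.28, while Sdf2l1, Herpud1 and Xbp1 fell by 1.03, 0.81 and 0.66. Sdf2l1, a chaperone cofactor, was 0.29 higher in nsPEF at 4 h (SE 0.0605, adjusted p = 0.0152), and it was the only gene of this list called between treatments at a single time point. Among relatives of the members, 3 of 9 tested genes rose and 3 fell in sham by 4 h, near the same shares of all probes. Nupr1l, one of those called lower, was well above background on 4 of 4 S0 arrays, at -4.24 to -4.04, but on only 1 of 4 S4 arrays, at -6.75 to -5.21, so no size is given. Sesn1 fell by 2.08 (adjusted p = 2.12e-16) and Trib1 by 0.94, while Atf6, Atf1 and Creb1 rose by 0.88, 0.84 and 0.22. Trib1 was 0.19 lower in nsPEF at 24 h (adjusted p = 0.0372). The lists were drawn up with earlier results of these arrays known, and their counts describe the lists only. Over all 9 lists, 15 genes were called between nsPEF and sham at a single time point. All 15 kept their direction in 13 alternative settings that used all arrays or all arrays of the time point. With the mean of a gene's probes 13 of the 15 were called. Shmt2 (0.185, adjusted p = 0.143) and Wars (0.141, adjusted p = 0.155) then lost the call at 24 h. With spike-in scaling 5 of the 15 were called, all at 4 h (Gars, Fgf21, Gadd45a, Sqstm1 and Sdf2l1), with normexp 7 and with centring by array row 10. Gars differed at 4 h by 0.039 (adjusted p = 0.705) with quantile normalization, Fgf21 by 0.336 (adjusted p = 0.188) with the same, and Sdf2l1 by 0.15 (adjusted p = 0.124) with centring by array row. In fits of only the groups compared 0 of 15 were called, with adjusted p values from 0.0722 to 0.206.

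**Figure D4:**
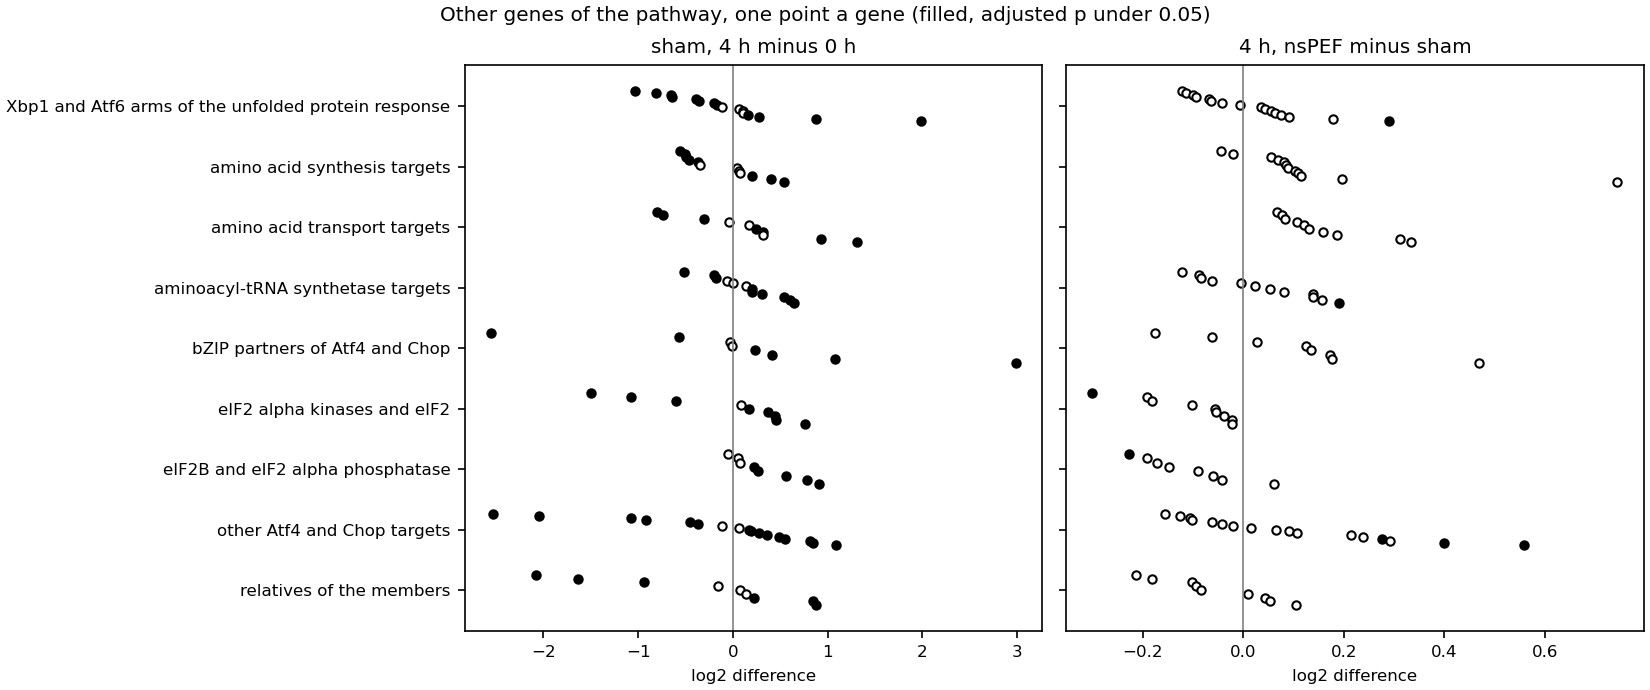
Log2 difference of each tested gene of the 9 pathway lists, for sham at 4 h against 0 h (left) and for nsPEF against sham at 4 h (right), on separate scales. Filled points passed an adjusted p of 0.05. Most points on the left are filled, and on the right 7 are, among them Fgf21, Gadd45a and Sqstm1.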

How the data were processed

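Total RNA from TM3 cells was labelled with Cy3 and hybridized by the authors to Agilent SurePrint G3 mouse arrays, and the scans were read with Feature Extraction 12.0 (per the submitters' processing notes). In the deposited scanner text each spot has a processed signal intensity, from which the software had subtracted background and trend, with no scaling between arrays. A second deposited table holds log2 values in which, with GeneSpring, the authors had shifted each array to its 75th percentile and set each probe against its median. Which array each of its columns belongs to was checked against the scanner values.

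Here, spots marked as not uniform or as population outliers were left out, control spots were dropped, and the mean over a probe's other spots was taken, for 56605 probes. The log2 intensity minus the 75th percentile of the array was used with a pseudocount of 0. No spot was saturated (0 in all). The authors' detection rule (some group with 2 or more of its 4 arrays well above background) left 37684 for testing. Group means were fitted to all 24 arrays by limma (version 3.58.1, under R 4.3.3). Unless an alternative is named, every adjusted p in the text is from limma's moderated test with Benjamini-Hochberg adjustment over all tested probes, at 0.05. The plain analysis of variance used unmoderated tests, and each alternative was adjusted over the probes or genes that it tested. A difference between groups is called risen, fallen, higher or lower in the text only past that threshold in the fit named. For a gene with several tested probes, the probe with the highest mean was used in counts. Symbols came from the RefSeq transcripts of the probes. The procedure was tested on simulated data. The number of arrays limits the precision. Per the authors' methods, nearly all assays of a biological replicate shared 1 cell suspension. Whether the suspensions of the 4 replicates came from separate cultures is not given in the sources used here, so p values measure the spread between these samples.

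The members, gene lists, tests and alternatives were chosen with earlier results of these data known. List genes are named by a rule: in each list the 3 largest rises and 3 largest falls among genes called in sham from 0 to 4 h, and every gene called between nsPEF and sham at a single time point. Asns is outside this rule and was picked after its value was seen. The alternatives were quantile normalization, scaling on 6 spike-in probes, a 75th percentile over probes detected everywhere, normexp on median intensities (offset 50), marked spots kept, the deposited log2 values, centring by bands of 16 array rows, no filter or a filter of 4 of 4 arrays, a plain two-way analysis of variance as in the authors' methods, a replicate block, the mean of a gene's probes, only the groups compared, and leaving out each array or each replicate number.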

Additional observations from a re-analysis of the deposited data

Results flagged for a closer look

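The brighter probe of Atf4 read 8.222 on S0 replicate 3, below the other arrays of S0 (8.394 to 8.426), a gap of 0.843 of the range of the group. It was the only one of 71 groups of 4 arrays tested in this way to pass the 95% limit of Dixon's test, which chance passes in about 1 group in 20. The dimmer Atf4 probe read 4.48 on the same array, the highest of its group.

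The difference between nsPEF and sham changed with time for Chac1 (adjusted p = 0.017 for the interaction in limma's fit). In order of time the differences were -0.13, 0.43 and 0.03, and all 4 nsPEF arrays lay above all 4 sham arrays at 4 h. Without a whole replicate number the adjusted p of the interaction was 0.077 to 0.142.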

How the results depend on the processing

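The counts of members called with time in sham and nsPEF moved by less than 1.5 times in every comparison under the 13 alternatives other than omissions, except that spike-in scaling gave 5 in place of 9 for 24 h against 0 h in sham and 5 in place of 9 in nsPEF. Among differences over time called under either scaling, those whose sign turned with spike-in scaling were, in sham at 24 h against 0 h, Atf4 (0.0515), Atf5 (0.36), Ddit3 (0.0201), Ddit4 (0.56) and Sesn2 (0.20). At 24 h against 4 h in sham they were Atf4 (0.12), Ddit3 (0.54), Ddit4 (0.44), Trib3 (0.12), Chac1 (0.37), Sesn2 (0.62), Ppp1r15a (0.56) and Nupr1 (0.19). In nsPEF at 24 h against 0 h they were Atf5 (0.44), Ddit4 (0.21) and Sesn2 (0.17), and at 24 h against 4 h Ddit3 (0.26), Ddit4 (0.24), Sesn2 (0.37) and Ppp1r15a (0.31). Each of these values lies below the rise in the median of all probes under that scaling, 0.70, 0.66, 0.54 and 0.37 in the same order of comparisons. Quantile normalization turned Ddit4 at 24 h against 4 h in sham (0.0304) and in nsPEF (0.0757). The cause was not tested.

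For nsPEF against sham at 4 h, 3 members were called in the main fit, 4 with quantile normalization, the percentile of probes detected on all arrays or the plain analysis of variance (Ppp1r15a was then called), 2 with normexp, 8 with spike-in scaling, 0 with only the groups compared, and 1 to 3 with arrays or replicate numbers left out, where Chac1 was called each time. At 0 h the omissions gave 0 to 1. At 24 h, where Atf5 was called, the count was 2 with quantile normalization, 2 with the 75th percentile of probes detected on all arrays, 2 with centring by array row, 2 with no filter, 2 with the plain analysis of variance and 2 with the mean of a gene's probes. It was 0 with spike-in scaling, 0 with normexp, 0 with only the groups compared, and 0 to 2 with omissions. Over all times the count of 3 became 5 with quantile normalization, 6 with spike-in scaling, 6 with the percentile of probes detected on all arrays, 1 with marked spots kept, 1 with the deposited log2 values and 1 to 4 with omissions. The interaction count of 1 became 0 with normexp and 0 to 2 with omissions. The shares of all probes given above belong to the main fit, and those of the alternatives are not given. Deviations from the group means showed no pairing by replicate number: of 12 same-numbered pairs 0 had a correlation over 0.1 (-0.0404 to 0.0929). Whether same-numbered sham and nsPEF samples came from 1 suspension cannot be decided by this check, since array noise can hide a shared origin. With a replicate block the count at 24 h was 2, as Trib3 was then called (adjusted p = 0.0493), and the block moved no other count of members by over 1.5 times. Signal over background did not limit the members, all of which were well above background, but the brightest probes, the brighter Atf4 probe among them, read lower on S4 replicate 4 than on the other S4 arrays.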
